A study of Mus musculus with 4 samples.

Results

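The genes described here are 6 inhibitors of cyclin-dependent kinases (Cdkn1a, Cdkn1b, Cdkn1c, Cdkn2a, Cdkn2b and Cdkn2c), the 3 D cyclins (Ccnd1, Ccnd2 and Ccnd3) and the retinoblastoma gene Rb1. They were taken by gene symbol, with every probe set annotated to 1 of these 10 symbols, out of 8236 genes with a probe set of their own on the array. The 10 genes had 14 probe sets. Of these, 7 probe sets for 5 genes (Cdkn1a, Cdkn2a, Cdkn2c, Ccnd1 and Ccnd3) were bright enough to be tested, and the other 7 are given by their signals alone.

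RNA came from 4 clonal sublines of c17.2, a mouse neural stem cell line made from neonatal cerebellum with the v-myc oncogene, kept in proliferating culture. Clone 42 and clone 48 carried a stable Nurr1 construct, and puroB and puroD the empty puromycin vector. By the labels, the clones had been matched by growth rate, clone 42 to puroB and clone 48 to puroD. Each matched pair thus sets 1 Nurr1 clone against 1 control clone. Each clone was 1 array, the sources used here do not name the promoter of the construct, and a property of a single clone cannot be told apart from an effect of Nurr1 within a pair. With 2 clones per group, the number of arrays limits the precision. The p-values rest in part on how far the 2 pair differences disagree, with 1 residual degree of freedom. They rest mostly on a spread pooled over the tested probe sets, to which 13.1 degrees of freedom belong.

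Progress from G1 into S phase depends on D cyclins, which bind Cdk4 or Cdk6 and phosphorylate the RB protein, and on cyclin E with Cdk2, which follows. Phosphorylated RB releases E2F factors, which switch on genes of DNA synthesis. INK4 proteins (Cdkn2a, Cdkn2b, Cdkn2c, Cdkn2d) bind Cdk4 and Cdk6 and keep D cyclins off, whereas Cip/Kip proteins (Cdkn1a, Cdkn1b, Cdkn1c) bind complexes of cyclin and kinase and inhibit Cdk2 above all. Cdkn2a encodes both the INK4 protein p16 and, from another first exon and reading frame, ARF, which holds back Mdm2 and so stabilises p53; Cdkn1a, which encodes p21, is a p53 target. In neural stem cells these genes govern self-renewal, and loss of the Cdkn2a locus or of p53 is common in lines that have become immortal.

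The arrays had like totals by construction, with medians between 125.6 and 160.1 MAS5 units. The ratio of 3′ to 5′ actin signal, which rises as RNA degrades, was 1.68 in clone 42 against 1.51 in puroB, and 2.41 in clone 48 against 2.003 in puroD. Nr4a2, the gene of Nurr1, was not higher in the clones labelled as carrying it. Its brighter probe set gave 320.1 (clone 42) and 206.4 (clone 48) where the controls gave 485.0 (puroB) and 254.2 (puroD). The dimmer one gave 188.0 and 113.5 against 371.9 and 213.2, so that both Nurr1-labelled signals were under both controls, by 1.98-fold and 1.88-fold within the pairs (mean -0.95; limma, unadjusted p = 0.0151, adjusted p = 0.453). The sources used here do not say whether its probes lie in the transfected sequence. The transfected lines are therefore called Nurr1-labelled clones, and directions follow the labels. Of the neural stem and progenitor markers, nestin was bright in every clone (Nes, 3030 to 3720), while vimentin and Pax6 were dim (Vim, 29.8 to 84.6; Pax6, 25.0 to 60.0).

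The 5 tested genes had 2 patterns. Cdkn2a, Cdkn1a and Ccnd1 gave lower signals in the Nurr1-labelled clone of both pairs, by 3.11-fold and 3.14-fold for Cdkn2a, 1.49-fold and 1.55-fold for the brighter Cdkn1a probe set, and 1.39-fold and 2.15-fold for the brighter Ccnd1 probe set. Cdkn2c and Ccnd3 were lower in clone 42 and higher in clone 48 than in the matched control. In RNA from a whole culture, fewer cells that express a gene and less RNA per cell cannot be told apart. None of the 7 probe sets passed the test (limma, Benjamini-Hochberg adjusted p under 0.05 over 6419 tested probe sets), a threshold that 7 probe sets in all, or 0.109%, passed. At an unadjusted p under 0.05 there were 3 of 7 member probe sets (Cdkn2a and both of Ccnd1), and 474 of all tested.

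**Figure D1:**
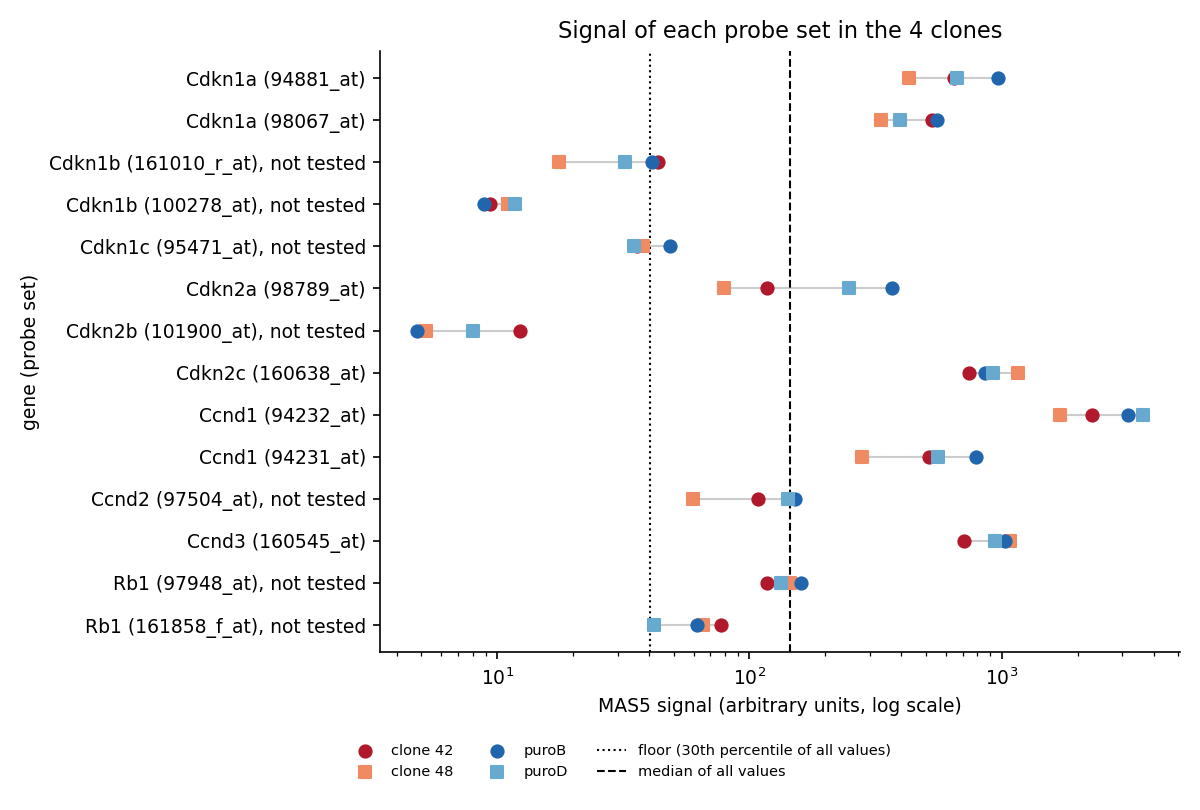
MAS5 signal (arbitrary units, log axis) of all 14 probe sets in clone 42 and clone 48 (reds) and puroB and puroD (blues), 1 array each; lines mark the floor of 40.3 and the median of all values, 145. Both red points lie left of both blue points for Cdkn2a, Ccnd1 and the upper Cdkn1a probe set, while Cdkn1b, Cdkn1c and Cdkn2b lie near or under the floor.

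Among the inhibitors, Cdkn2a had the largest difference. Its 1 probe set gave 117.5 (clone 42) and 79.0 (clone 48) where the controls gave 365.8 (puroB) and 248.3 (puroD). Both Nurr1-labelled signals lay under both controls, with no overlap, and all 4 lay above the brightest of 15 control probe sets for bacterial transcripts on their array (39.1 to 62.7). Within the pairs the log2 differences were -1.64 and -1.65, and their mean was -1.65 ± 0.37 (SE; n = 2 in each group; limma, unadjusted p = 0.000534, adjusted p = 0.107). Its 95% confidence interval ran from -2.44 to -0.85. The probe set was tested only because both controls exceeded the median of all values, 145, which neither Nurr1-labelled clone did, so the choice of tested probe sets was not independent of its difference. With no filter on dim probe sets its unadjusted p was 0.0376 (limma, adjusted p = 0.903).

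The same gene also differed inside each group. puroB was 1.47-fold above puroD, and clone 42 was 1.49-fold above clone 48, log2 differences of 0.56 and 0.57. With quantile normalization these were 0.47 and 0.22, and with scaling to the median 0.42 and 0.34, so the near equality holds under the main scaling only. The differences within the pairs, too, were less alike with quantile normalization (-1.60 and -1.35) and with the floor at the median (-1.33 and -0.77), and -1.52 and -1.44 with scaling to the median. Under each of these settings both differences within a pair were larger than either difference within a group. In the fit without the pair as a block, the mean stayed at -1.65 and its SE grew to 0.43 (limma, adjusted p = 0.704). Taking each clone out in turn gave means from -1.93 (without clone 42) to -1.36 (without clone 48), and Cdkn2a passed the test under no setting (limma, adjusted p from 0.0652 to 1.00).

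Because 1 probe set stands for a gene with 2 promoters, and the sources used here hold no probe sequences, the signal was not assigned to p16 or ARF. The RefSeq table for GRCm38.p6 holds both start sites on the minus strand of chromosome 4. The 250 bases before each are shown because they differ in make-up, and the signal could come from either. In the sequences, capitals mark matches, on either strand, to a GC box (GGGCGG, bound by Sp1-type factors) or to an E2F motif (TTTCGCGC, TTTGGCGC, TTTCCCGC or TTTGCCGC).
Cdkn2a upstream start, chr4:89294620-89294869, minus strand: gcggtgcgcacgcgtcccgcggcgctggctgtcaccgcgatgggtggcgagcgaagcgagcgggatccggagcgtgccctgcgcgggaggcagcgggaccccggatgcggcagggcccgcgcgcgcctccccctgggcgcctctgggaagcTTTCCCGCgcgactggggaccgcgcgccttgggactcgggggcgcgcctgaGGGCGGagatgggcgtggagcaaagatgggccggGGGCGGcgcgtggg
Cdkn2a downstream start, chr4:89282193-89282442, minus strand: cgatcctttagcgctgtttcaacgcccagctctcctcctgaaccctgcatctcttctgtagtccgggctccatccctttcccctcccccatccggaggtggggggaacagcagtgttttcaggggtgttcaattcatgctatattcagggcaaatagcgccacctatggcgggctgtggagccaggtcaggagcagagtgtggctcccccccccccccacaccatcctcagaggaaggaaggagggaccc

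The upstream start, that of ARF, had 78.4% G and C, 2 GC boxes and 1 E2F motif, which lay 99 to 92 bases before the start. The downstream start, that of p16, had 60.0% G and C and no match to either motif. The median over all 32851 promoter windows of this length was 52.4% G and C. A GC box was found in 32.7% of them and an E2F motif in 1.86%. A match here describes letters only, and no binding was measured.

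Cdkn1a, which encodes p21, had probe sets that differed in size. The brighter one gave 649.3 (clone 42) and 429.4 (clone 48) where the controls gave 967.9 (puroB) and 665.0 (puroD). The groups did not overlap, but clone 42 lay close under puroD. The mean log2 difference was -0.60 ± 0.29 (-0.58 and -0.63 in the pairs; limma, adjusted p = 0.698), with an interval from -1.22 to 0.013. Without clone 48 the mean was -0.31, without puroB -0.33 and without clone 42 -0.90. The dimmer probe set gave 527.7 and 330.6 against 552.5 and 393.3, and its groups overlapped. Its mean was -0.16 ± 0.29 (limma, adjusted p = 0.990), and it turned to 0.011 when arrays were scaled to their medians. At both probe sets puroB was above puroD, by 1.46-fold and 1.41-fold, and clone 42 above clone 48, by 1.51-fold and 1.60-fold. The offset between the pairs was therefore about as large as the difference within them for the first probe set and larger for the second.

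The RefSeq table gives 2 start sites for Cdkn1a, too, on the plus strand of chromosome 17. The downstream one is shown with its GC boxes in capitals, since the GC boxes close to this start are a classic feature of the p21 promoter.
Cdkn1a downstream start, chr17:29093519-29093768, plus strand: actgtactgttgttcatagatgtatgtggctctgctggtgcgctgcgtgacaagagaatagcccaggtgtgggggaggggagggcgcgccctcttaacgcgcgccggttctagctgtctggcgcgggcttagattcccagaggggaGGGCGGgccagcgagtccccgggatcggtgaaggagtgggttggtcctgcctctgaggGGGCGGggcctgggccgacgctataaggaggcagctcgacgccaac
It held 2 GC boxes, 104 to 99 and 46 to 41 bases before the start, no E2F motif, and 64.8% G and C. The upstream Cdkn1a start held neither motif. Among the 6 of 10 genes with a promoter entry, the E2F motif was found only at the upstream Cdkn2a start, of 10 entries in all.

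Cdkn2c, which encodes the INK4 protein p18, showed no order by group. It gave 742.7 in clone 42 and 1156.8 in clone 48, and both controls lay between them, at 861.4 (puroB) and 923.2 (puroD). The mean difference was 0.056 ± 0.30 (limma, adjusted p = 0.997), with an interval from -0.60 to 0.71. The Nurr1-labelled clones differed from each other more than any pair did, with clone 48 1.56-fold above clone 42. The other INK4 gene measured, Cdkn2d (p19), likewise had both controls (691.6 and 598.5) between clone 42 (578.6) and clone 48 (789.3), with a mean of 0.071 (limma, adjusted p = 0.995). Of the 7 inhibitor genes, 4 were tested and 2 of these were lower in both pairs, beside 29.7% of all tested probe sets. The medians of the 4 were -0.42 and -0.15 in the pairs, and with scaling to the median the latter was 0.063.

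The remaining inhibitors gave no level to compare. Cdkn2b, the INK4 gene beside Cdkn2a that is induced by TGF-beta, read 4.8 to 12.3. Cdkn1b, which encodes p27, read 8.9 to 11.8 at one probe set and 17.5 to 43.2 at the other. Cdkn1c, the imprinted gene of p57, read 34.9 to 48.5. All 4 probe sets lay under the brightest bacterial control of their array in every clone, so no difference between clones was detectable; such a signal does not show that the transcript is absent.

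Of the D cyclins, Ccnd1 had lower signals in both Nurr1-labelled clones than in both controls at each of its probe sets. The brighter one gave 2281 (clone 42) and 1699 (clone 48) where the controls gave 3166 (puroB) and 3643 (puroD). The dimmer one gave 514.2 and 280.5 against 790.1 and 558.3. The order of the control clones differed between the probe sets, with puroD above puroB at the first and puroB 1.42-fold above puroD at the second. Mean log2 differences were -0.79 ± 0.32 (-0.47 and -1.10; limma, unadjusted p = 0.0281, adjusted p = 0.563) and -0.81 ± 0.29 (-0.62 and -0.99; unadjusted p = 0.0143, adjusted p = 0.440). Both intervals, -1.48 to -0.097 and -1.43 to -0.19, lay below 0 before adjustment. Both probe sets had the larger difference in the pair of clone 48. Without clone 48, the mean of the second was -0.37, and without clone 42 it was -1.24.

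Ccnd2, the D cyclin tied to neural progenitors, was dim. It gave 108.4 (clone 42) and 59.5 (clone 48) where the controls gave 150.8 (puroB) and 141.6 (puroD), so that both Nurr1-labelled signals were again under both controls. Only puroB exceeded the median of all values, so the probe set was not tested. With no filter on dim probe sets it had a mean of -0.86 ± 0.38 (limma, adjusted p = 0.903, unadjusted p = 0.161).

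Ccnd3, the most broadly expressed D cyclin, did not share this order. It gave 709.9 (clone 42), 1077 (clone 48), 1026 (puroB) and 937.0 (puroD). Only clone 42 stood apart, below the other 3, and clone 48 was 1.52-fold above it. The mean of -0.17 ± 0.31 (limma, adjusted p = 0.992; interval -0.83 to 0.50) became 0.0039 with scaling to the median and 0.14 without clone 42.

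Rb1, the target of the D cyclin kinases, was dim at both probe sets. The brighter one gave 117.4 (clone 42), 144.5 (clone 48), 159.5 (puroB) and 133.3 (puroD), with overlapping groups. The dimmer one gave 76.8 and 65.6 against 61.8 and 42.0, the only member probe set with both Nurr1-labelled signals above both controls, and in puroD it was under the brightest bacterial control. Neither was tested, and without the filter their means were -0.16 and 0.48 (limma, adjusted p = 1.00 and 0.903).

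**Figure D2:**
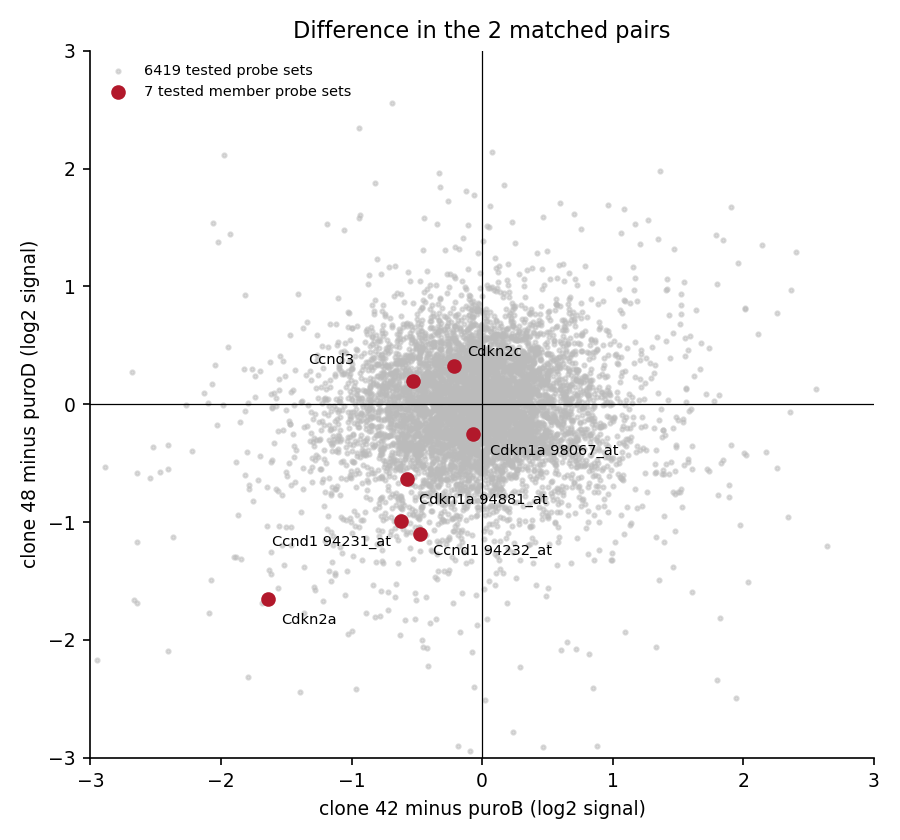
Difference in log2 signal between clone 42 and puroB (horizontal) and between clone 48 and puroD (vertical), for 6419 tested probe sets (grey; 13 lie outside the plotted range) and the 7 tested member probe sets (red), 1 array per clone. Cdkn2a lies on the diagonal at -1.64 and -1.65; both Ccnd1 probe sets and the brighter Cdkn1a probe set lie in the lower left; the dimmer Cdkn1a probe set, near the centre, and Ccnd3 change the sign of their mean when arrays are scaled to the median.

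Over the tested probe sets, 5 of 7 were lower in both pairs, where 29.7% of all tested probe sets were. With quantile normalization the count was 4 of 7, beside 1656 of all 6419 tested probe sets. With scaling to the median the count was 4 of 7, beside 1055 of 6419. Both Nurr1-labelled signals were under both controls for 4 of 7, against 17.9% of all tested probe sets, and the count was 4 of 7 with quantile normalization (15.2% of all tested) and with scaling to the median (9.08%). The median difference of the 5 genes, each by its brightest probe set, was -0.53 for clone 42 and -0.63 for clone 48 against their controls, beside -0.060 and -0.035 over all tested probe sets. These genes were chosen with such results known, and share the same arrays, so the counts describe them and test nothing; Cdkn2a, moreover, was among the tested only through its control signals.

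A 2-fold difference was reached by 1 of 7 probe sets, Cdkn2a, between clone 42 and puroB, where 8.35% of all tested probe sets had one. Between clone 48 and puroD it was reached by 2 of 7, Cdkn2a and the brighter of Ccnd1, against 5.39%. Between the control clones 0 of 7 reached it, against 6.06%, and between the Nurr1-labelled clones 0 of 7, against 10.7%. The largest difference inside a group was that of the dimmer Ccnd1 probe set, with clone 42 1.83-fold above clone 48.

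**Figure D3:**
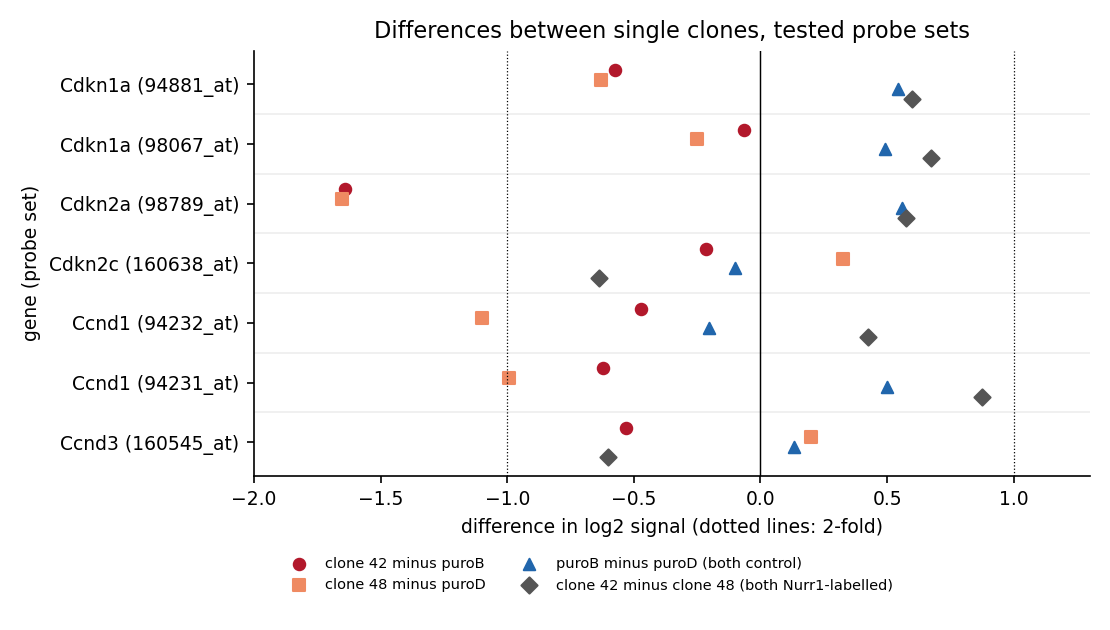
Differences in log2 signal between single clones for the 7 tested probe sets: the matched pairs (circles, squares), the control clones (triangles) and the Nurr1-labelled clones (diamonds), 1 array each; dotted lines mark 2-fold. For Cdkn2a the pairs lie at -1.64 and -1.65, outside the differences of 0.56 and 0.57 within the groups, whereas for both Cdkn1a probe sets the differences within a group (0.49 to 0.67) are of the size of those in the pairs or larger.

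The genes most like the members were sought among the other tested probe sets with 1 symbol (5818 or 5819) by the root mean square difference of log2 signals, centred on their mean over the 4 arrays, for the 3 members of largest range. Nearest to Cdkn2a were Prps1l3 (difference 0.10), the drug efflux transporter Abcc1 (0.15) and the G protein signalling regulator Rgs14 (0.16). Rgs14 read 425.5 (clone 42) and 253.5 (clone 48) where the controls gave 1306.9 (puroB) and 687.5 (puroD). Nearest to the brighter Cdkn1a probe set were the RNA-binding protein gene Nono (0.0045), the co-chaperone gene St13 (0.052) and Pnmt (0.056). Nearest to the brighter Ccnd1 probe set were C1qtnf12 (0.054), the laminin receptor chain Itga6 (0.073) and the RNA helicase gene Ddx6 (0.082). Each of these likenesses rests on 4 arrays, and no test was made of them.

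Of the partners and targets around these genes, 0 in any list passed the test (limma), in either direction. Among 8 tested G1 kinase and E cyclin genes, both pairs were lower for 4 and higher for 0, where 29.7% of all tested probe sets were lower and 21.7% higher in both. Cdc25a, the phosphatase that activates Cdk2, had the largest mean difference at -0.70 (-1.09 and -0.31; limma, adjusted p = 0.604), followed by Cdk2 at -0.59, Ccne1 at -0.34 and the Cdk7 gene at -0.22. Cdk4, the partner of the D cyclins, read 4473 and 5529 against 4573 and 4919 (mean 0.068), and had -0.42 at a dimmer probe set. Cdk6, for which no probe set with that symbol alone was found, was not analysed here.

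Of 4 tested genes of the RB family and E2F, 3 were lower in both pairs, beside 29.7% of all tested probe sets. With scaling to the median, 0 of the 4 were lower in both, beside 1055 of all 6419 tested probe sets. E2f1, the E2F factor that is itself an E2F target, read 158.5 (clone 42) and 313.1 (clone 48) where the controls gave 298.8 (puroB) and 318.0 (puroD), so that only clone 42 was low. Its mean was -0.47 (limma, adjusted p = 0.883) and -0.22 at another probe set. The others were Tfdp1, the partner of E2F, at -0.32, with 0.037 and -1.09 at other probe sets, the RB relative Rbl1 at -0.28, and E2f5 at -0.052. Rbl2, another RB relative, and E2f3 were too dim to be tested.

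E2F target genes had unlike values in the pairs. In clone 42, 15 of 17 tested were below puroB, with a median log2 difference of -0.91, whereas in clone 48, 8 of 17 were below puroD, with a median of 0.056. Mcm2, a replication licensing gene, had the largest mean at -0.85 (-2.04 and 0.34), then the licensing factor Cdc6 at -0.82 (-1.61 and -0.035), the polymerase gene Pola1 at -0.82 (-1.61 and -0.023) and thymidine kinase Tk1 at -0.69 (-1.21 and -0.18). Proliferation markers followed the same order, with 11 of 11 tested lower in clone 42 (median -1.24) and 7 of 11 in clone 48 (median -0.064). Over all tested probe sets, 3532 of 6419 were lower in clone 42 than in puroB, and 3400 in clone 48 than in puroD. Cdk1 is in both lists, and Ccne1, Ccna2, Rbl1 and E2f1 are shared with lists above. The largest means among the markers were those of Top2a (-1.18), Ccnb2 (-1.04), Ube2c (-0.99) and Plk1 (-0.90). Plk1 had -0.58 and -0.32 at other probe sets, and at the last of these clone 48 was above puroD (0.35).

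Ccnd1 ran the other way round, with its larger difference in the pair of clone 48 (-1.10, against -0.47 in that of clone 42), in which the proliferation markers had their median near 0. Cdkn2a had -1.64 and -1.65, and -1.60 and -1.35 with quantile normalization. Whether the difference between the pairs was itself significant was not tested, since each pair is 1 array against 1. The labels give clone 42 and puroB, and clone 48 and puroD, similar proliferation rates. The summed signal of the proliferation markers was 9517 (clone 42), 26268 (clone 48), 20765 (puroB) and 26249 (puroD). What part this has in the values of the cell cycle inhibitors and D cyclins was not tested.

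**Figure D4:**
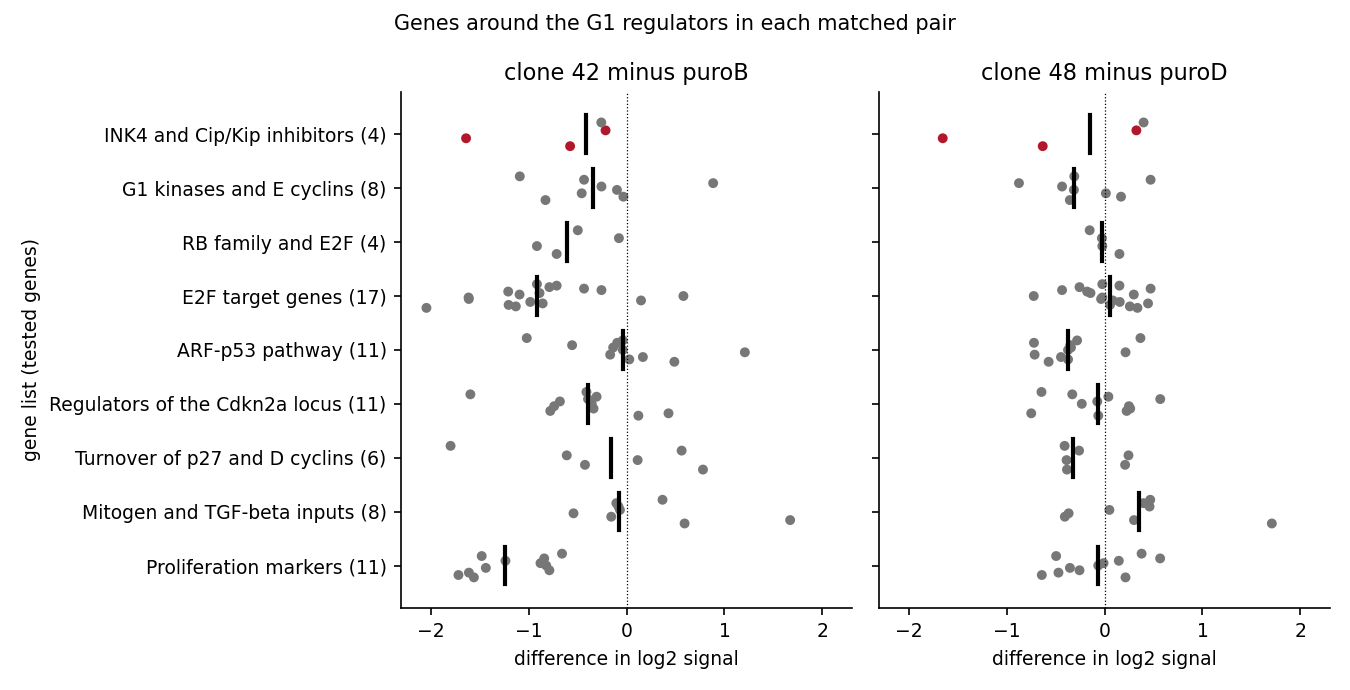
Difference in log2 signal in each matched pair for the tested genes of 9 lists around the G1 regulators (points; members of the described set in red, others in grey; bars show the list's median; the number of tested genes is in brackets). E2F targets and proliferation markers have medians of -0.91 and -1.24 in the pair of clone 42 and 0.056 and -0.064 in that of clone 48; with scaling to the median the latter medians are 0.27 and 0.15, and those of several short lists change sign.

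In the ARF-p53 pathway, 11 genes were tested, with a median of -0.039 in the first pair and -0.37 in the second. Both pairs were lower for 6 and higher for 1, beside 29.7% and 21.7% of all tested probe sets. With scaling to the median, 3 of the 11 were lower in both, beside 1055 of all 6419 tested probe sets. Mdm2, the ubiquitin ligase that ARF restrains, read 1220 (clone 42), 872.8 (clone 48), 869.8 (puroB) and 1296 (puroD), with no order by group (mean -0.041). The stress-induced Gadd45a had the largest mean, 0.71 (1.21 and 0.21; limma, adjusted p = 0.680), and puroB was above puroD by more, 1.31. The p53 targets Ei24 (-0.45), Ccng1 (-0.44) and Plk2 (-0.41) were next. Like the brighter Cdkn1a probe set, each of these 3 had both Nurr1-labelled signals under both controls, as did 4 of the 11 in all, beside 17.9% of all tested probe sets. With scaling to the median the count was 1 of 11, beside 9.08% of all tested probe sets. Trp53 was not analysed here for the same reason as Cdk6.

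Among regulators of the Cdkn2a locus, both pairs were lower for 4 of 11 tested genes (36.4%) and higher for 0. Of all tested probe sets, 29.7% were lower and 21.7% higher in both. Bmi1, the polycomb protein that represses the locus in neural stem cells, read 1937 (clone 42) and 2766 (clone 48) where the controls gave 1781 (puroB) and 2891 (puroD), so it followed the pair and not the group (mean 0.029). Ets2, an activator of p16, had the largest mean, -0.96 (-1.59 and -0.33; limma, adjusted p = 0.478), followed by Id1 (-0.53), the polycomb gene Suz12 (-0.38) and Eed (-0.29). Id1 read 117.7 (clone 42) and 421.5 (clone 48) where the controls gave 156.3 (puroB) and 658.5 (puroD). It thus differed more between the pairs than within them, and its groups overlapped. A dimmer Suz12 probe set had -1.42 (limma, adjusted p = 0.0853) and another was too dim to be tested, so the Suz12 probe sets differ in size. Rnf2, too, had unlike probe sets, with -0.16 at the brightest and -0.96 at a dimmer one (limma, adjusted p = 0.465).

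Of 6 tested genes for the turnover of p27 and D cyclins, 1 was lower in both pairs: Usp2, a ubiquitin protease that stabilises cyclin D1, at -1.10 (-1.80 and -0.41; limma, adjusted p = 0.495; -0.35 at another probe set). Skp1 had 0.20, Cul1 -0.18 and Cops5 0.15. Of 8 tested mitogen and TGF-beta genes, both pairs were higher for 3 and lower for 2, beside 21.7% and 29.7% of all tested probe sets. Jun, which drives Ccnd1 transcription, had 1.15 (0.59 and 1.71; limma, adjusted p = 0.259) and Fos 0.99 (1.67 and 0.30; adjusted p = 0.386). For these, too, the controls differed, with puroB above puroD by 1.54 for Jun and 1.87 for Fos. Egr1 had -0.45 and Tgfb1 0.42. The cellular Myc gene was too dim to be tested, with at most 74.6 on any array.

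Among the neural stem and progenitor markers, Fabp7, a radial glial lipid-binding protein gene, read 564.5 (clone 42) and 157.3 (clone 48) where the controls gave 1292.5 (puroB) and 1539 (puroD) (mean -2.24; limma, adjusted p = 0.0503). The summed signal of that list, with 3 of 8 genes on the array tested, was 4464 and 4638 against 5480 and 5422. Most of this was Nes, with overlapping groups (3174 and 3720 against 3325 and 3030). The order of the sums by group came from Fabp7 and was not present without it. Notch1, also tested, was lower in both pairs, with 365.8 and 415.1 against 494.9 and 523.1. Markers of other cell types had unlike signals as well. All 3 tested neuron markers, of 7 with a probe set, were higher in both pairs, as were 21.7% of all tested probe sets, with summed signals of the list of 6680 and 5391 in the Nurr1-labelled clones and 3195 and 3214 in the controls. Most of these sums was Tubb3, with 5688 and 4633 against 2703 and 2704. Nefm (380.5 and 349.7 against 109.8 and 129.2) was among the tested only through its Nurr1-labelled signals, so the filter favoured its direction. Untested Map2, a neuronal microtubule protein gene, had the opposite order, with 45.8 and 4.2 against 198.1 and 120.3. Untested Dcx was lower in both pairs as well, with 51.9 and 23.2 against 60.3 and 57.7. The synaptic genes Snap25 and Syp lay under the brightest bacterial control on all arrays. The summed fibroblast and mesenchymal markers were 11979 and 8243 against 4608 and 5394. In both pairs 2 of 6 tested were higher and 1 lower, beside 21.7% and 29.7% of all tested probe sets. The 2 higher were Col3a1 (5020 and 4010 against 1288 and 1751) and Snai2 (3235 and 2127 against 1527 and 1152). The 1 lower was Twist1 (53.9 and 133.5 against 189.8 and 202.2), tested only through its control signals. Col1a1, Col1a2 and Fn1 had overlapping groups. Summed microglia and macrophage markers were 531.8 and 406.3 against 615.3 and 647.4, with Aif1 and Ptprc under the bacterial controls. Endothelial markers summed to 3402 and 4163 against 4272 and 4593, with Cdh5 and Tek under the bacterial controls. Most of this was Eng, the only gene of that list tested (3172.3 and 4016.4 against 4017.7 and 4420.5). Untested Pecam1 was lower in both pairs, and untested Kdr was higher in both. Astrocyte markers summed to 1696 and 761.2 against 896.2 and 748.5. Most of this was S100b, the only one tested (1601 and 509.5 against 735.9 and 625.8). Oligodendrocyte markers summed to 5335 and 7919 against 5083 and 3712, mostly from Sox10 (5119 and 7668 against 4749 and 3437). Of the 3 tested, Sox10 was higher in both pairs, and Mag had overlapping groups. Mbp was lower in both pairs, with 75.5 and 96.3 against 175.8 and 149.2, and was among the tested only through its control signals. The part of any of these in the signals of Cdkn2a, Cdkn1a and Ccnd1 was not tested.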

How the data were processed

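Total RNA of 4 clones was hybridised as biotin-labelled cRNA, 1 Affymetrix array per clone. The authors deposited 1 linear intensity per probe set and array; MAS5 is named in the submitters' processing notes, and the sources used here give neither its version nor its scaling. Trimmed means (2% off each end) of the deposited values were 500.4 to 500.5.

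Here arrays were brought to a common trimmed mean of 500. The 30th percentile over all arrays (40.3) served as a floor, and log2 was taken. Probe sets with 2 or more arrays above the median (145) were tested: 6419 of 12403, leaving out 66 array controls. Symbols came from the platform annotation (10814 probe sets with 1 symbol, 396 with several, 1193 with none), checked by Entrez identifier against RefSeq, with 0 updated. The group difference was fitted in limma 3.58.1 (R 4.3.3), with the pair as a block, an intensity trend, Benjamini-Hochberg adjustment over all tested probe sets and a threshold of 0.05. The residual degree of freedom is 1, to which the prior adds 13.1. The pairing is that of the labels; deviations of paired clones correlated with r = 0.19 across probe sets, which are not independent. The fit was tested on simulated data. Confidence intervals (95%) are unadjusted. Single clones were compared by log2 ratio with no test. Promoter letters came from the RefSeq table of GRCm38.p6.

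The members and gene lists were chosen with earlier results of these data known. A gene with several probe sets enters a list with its brightest. Of each list, up to 4 tested genes of the largest mean difference are named, besides Cdkn2d, Cdk4, Cdk6, Cdk2, Ccne1, Trp53, Mdm2, E2f1 and Bmi1. The 3 probe sets nearest in pattern to each of the 3 members of largest range are also named. The dimmer Suz12 probe sets, Rnf2, Rbl2, E2f3, Myc, Map2, Fabp7 and the other single cell type markers were named after their values were seen. Alternatives were no pair block, quantile or median scaling, other floors and filters, no intensity trend, and leaving out each clone.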

Additional observations from a re-analysis of the deposited data

How the results depend on the processing

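The number of probe sets that passed was 7 (4 higher, 3 lower in the Nurr1-labelled clones). It was 0 with no replicate block (287 at an unadjusted p under 0.05 in limma), with quantile normalization (375), with no floor (473) and with no filter (560). It was 51 with scaling to the median (36 higher, 15 lower; 7 shared with the main 7), 17 with a floor at the median, 49 with a filter on all 4 arrays and 7 with no intensity trend, of which 3 were among the main 7. Leaving out 1 clone, which also drops the pair from the fit, gave 0 (without puroB; 203 at an unadjusted p under 0.05) to 51 (without clone 48); without clone 42 it was 17 and without puroD 2. No member probe set passed under any of these settings. Scaling to the median moved the median difference of all tested probe sets from -0.038 to 0.13, and with it the means of the dimmer Cdkn1a probe set to 0.011 and Ccnd3 to 0.0039, which reversed. Over the clones left out, the dimmer Cdkn1a probe set ran from -0.50 to 0.18, Ccnd3 from -0.47 to 0.14 and Cdkn2c from -0.26 to 0.38. Under every setting in which they could be fitted, Cdkn2a (-1.93 to -1.05), the brighter (-0.9998 to -0.57) and dimmer (-1.24 to -0.37) Ccnd1 probe sets and the brighter Cdkn1a probe set (-0.90 to -0.31) had negative means. The value of -1.05 is that with the floor at the median, which lies above both Nurr1-labelled Cdkn2a signals. Cdkn2a could not be fitted with the filter on all 4 arrays, which it does not pass. Of the differences between single clones, those of Cdkn2a and Cdkn1a moved by more than the spread between the pairs under some scaling or floor, 20 values in all; those of the other members did not. For Cdkn2a, clone 42 minus clone 48 was 0.57, 0.22 with quantile normalization and 0 with the floor at the median, which lies above both signals. Signals near those of the bacterial controls limit what can be said of Cdkn1b, Cdkn1c and Cdkn2b.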
